A study of Homo sapiens with 12 samples.

Results

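Expression of 49 genes that build and drive the mitotic apparatus was followed through inhibition of AKT, of EZH2 and of both in C4.2B cells. The genes were taken by symbol from the table of gene counts, where 49 of 58735 rows matched, and all 49 were among the 16646 genes with enough counts to be tested. They encode the kinases and cyclins of mitotic entry (5 genes), the chromosomal passenger complex (4), the spindle checkpoint (4), regulators of anaphase and mitotic exit (4), the NDC80 complex (4), the centromere and outer kinetochore (6), spindle kinesins (5), spindle assembly factors (4), the central spindle and cytokinetic furrow (5), condensin and topoisomerase (5), and FOXM1, MYBL2 and the proliferation marker MKI67 (3). C4.2B is a human prostate cancer line of the LNCaP lineage that grows without androgen. Polyadenylated RNA was sequenced in 4 arms of 3 libraries, labelled A, B and C: vehicle (DMSO), 0.25 μM ipatasertib to inhibit AKT (AKTi), 1 μM tazemetostat to inhibit EZH2 (EZH2i), or the drugs joined (combination). The EZH2i and combination cells had been exposed to tazemetostat for 6 days and the others to DMSO. Ipatasertib was given only in the 24 hours of treatment that followed. Every arm spent these in medium with 10% charcoal-stripped FBS, which is poor in steroid hormones. The comparison addressed which transcriptional changes accompany the joint treatment. The libraries came from plates of a single line, so the spread between them is that of separate cultures of 1 line and may be largely technical.

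Mitosis is started by CDK1 bound to B-type cyclins, with PLK1 and the Aurora kinases acting beside it. Chromosomes are compacted by condensin and attach to spindle microtubules through the kinetochore, which assembles on centromeric chromatin containing CENPA, and the spindle checkpoint holds the cell until every kinetochore is attached. CDC20 then directs the anaphase-promoting complex to degrade securin and cyclin B, sister chromatids part, and the cell divides. Most of these genes are transcribed in G2 and M phase and are silent in resting cells. FOXM1 and MYBL2 (B-Myb), each working with the MuvB complex, activate them late in the cycle, while the DREAM complex, in which MuvB is joined to E2F4 or E2F5 and an RB-like pocket protein, represses them in quiescence. MuvB binds a short promoter element, the cell cycle genes homology region (CHR), and NF-Y binds CCAAT boxes that often lie just upstream of it. AKT conveys growth factor signals that favour entry into the cell cycle, and EZH2 is the enzyme that places the repressive mark H3K27me3.

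The promoter elements through which these genes are known to be coordinated were looked for in the RefSeq promoter windows (GRCh38.p14, 250 bases before to 50 after each start), which matched 43 of the 49 genes. BIRC5, TTK, UBE2C, AURKA, TPX2 and FOXM1 had no entry. Each sequence here is the 130 bases immediately before the start, read 5′ to 3′ on the strand of the gene, with CHR words and CCAAT boxes on either strand in capitals. The first 5 are shown because they hold both elements, and they belong to a cyclin pair, the kinase PLK1, the checkpoint target CDC20 and the spindle motor KIF11. MYBL2 and CENPK are shown because they had no CHR word and were among the 5 genes that fell most in the combination. AURKB also met this rule and is not shown, and the limit of its windows is given below. The windows lie at chr5:69167020-69167149 for CCNB1, chr15:59105016-59105145 for CCNB2, chr16:23678759-23678888 for PLK1, chr1:43358851-43358980 for CDC20, chr10:92593000-92593129 for KIF11 and chr20:43666984-43667113 for MYBL2, all on the plus strand, and at chr5:65563169-65563298 on the minus strand for CENPK.
CCNB1: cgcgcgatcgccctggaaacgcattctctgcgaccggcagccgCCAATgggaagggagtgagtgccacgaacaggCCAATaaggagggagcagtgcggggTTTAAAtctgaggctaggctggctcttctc
CCNB2: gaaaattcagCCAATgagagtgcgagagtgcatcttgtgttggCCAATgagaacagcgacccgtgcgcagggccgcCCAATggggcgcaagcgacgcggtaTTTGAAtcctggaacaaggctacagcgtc
PLK1: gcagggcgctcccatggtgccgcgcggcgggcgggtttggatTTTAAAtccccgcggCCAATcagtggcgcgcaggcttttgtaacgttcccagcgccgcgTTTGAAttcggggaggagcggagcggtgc
CDC20: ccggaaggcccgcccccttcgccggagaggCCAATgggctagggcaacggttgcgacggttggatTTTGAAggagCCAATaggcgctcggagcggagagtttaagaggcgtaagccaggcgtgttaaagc
KIF11: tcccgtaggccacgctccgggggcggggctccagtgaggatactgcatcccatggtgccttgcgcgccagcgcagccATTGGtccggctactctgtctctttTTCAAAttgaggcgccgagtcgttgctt
MYBL2: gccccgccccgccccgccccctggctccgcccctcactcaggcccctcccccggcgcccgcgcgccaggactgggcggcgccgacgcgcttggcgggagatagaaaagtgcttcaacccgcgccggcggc
CENPK: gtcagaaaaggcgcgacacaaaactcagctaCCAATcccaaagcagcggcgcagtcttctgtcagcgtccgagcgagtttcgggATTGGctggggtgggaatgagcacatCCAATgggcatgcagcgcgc

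The CHR was searched on either strand as the word TTTGAA, the variant TTTAAA or the rarer form TTCGAA. One of these was present in the whole window of 38 of the 43 genes (88.4%), against 22.3% of the 10939 tested genes with a window. TTTGAA was the commonest of the 3, in 31 of the 43 windows (72.1%) against 13.3% of tested genes. A CCAAT box stood in 32 of the 43 (74.4%, against 42.8%), and 29 (67.4%, against 11.7%) held both. Of 63 CHR matches in these windows, 2 shared a base with a CCAAT box or E2F word. In CCNB1, CCNB2 and KIF11 a CCAAT box began 25 bases before the CHR word, which itself began 30, 29 and 28 bases before the start. Counting pairs that began 20 to 35 bases apart, with the CCAAT box first, found 14 of the 43 genes (32.6%) and 1.11% of tested genes. This range was not in the planned search. These matches describe letters in a window and are not evidence of binding.

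E2F words, exact forms of sites of the factors that drive S-phase genes, were searched as TTTCCCGC, TTTGGCGC, TTTCGCGC and TTTGCCGC, a list added after the expression values were known. Other forms of the site were not searched, so a window without a word may still hold one. These words were found in CDK1, CENPA and NUSAP1 only among the 43 genes (6.98%, against 6.55% of tested genes). By contrast, 30 genes of the G1/S transition and DNA replication, such as the MCM helicase subunits, were used for comparison, and of the 25 with a window 16 (64.0%) held an E2F word and 6 (24.0%) a CHR word. Another 80 mitotic genes outside the 49 had a CHR word in 43 of 62 windows (69.4%). The spaced pair of a CCAAT box before a CHR word stood in 16 of these 62 (25.8%) and in 0 of the 25 G1/S genes. CCAAT boxes were frequent in both of these lists, in 16 of the 25 G1/S genes (64.0%) and 44 of the 62 other mitotic genes (71.0%). A list mainly of kinesins that carry cargo in interphase, which also took in KIF2A and KIF7, had a CHR word in 2 of 15 windows (13.3%). CHR words were thus the more frequent in the mitotic lists and E2F words in the G1/S list.

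**Figure D1:**
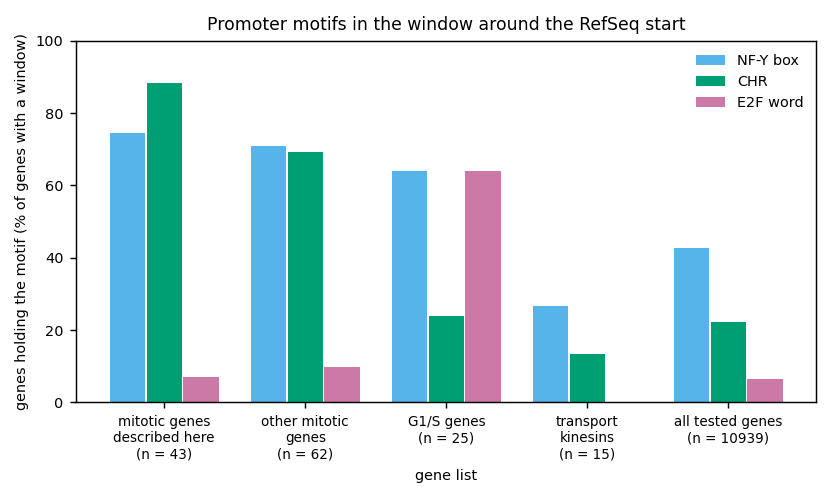
Percent of genes (y axis) whose RefSeq promoter window held a CCAAT box (labelled NF-Y box), a CHR word or an E2F word, for each gene list (x axis, n = genes with a window). The CHR bar is highest for the mitotic genes described here (88.4%), and the E2F bar for the G1/S genes (64.0%).

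Levels are given as CPM, the TMM-scaled counts relative to the library total, and a fold change is a difference of log2 levels fitted by edgeR's quasi-likelihood test over all 12 libraries. A gene was called where the adjusted p-value (Benjamini-Hochberg over all tested genes) was under 0.05. The 49 genes together took 0.618% ± 0.0099 of all counts in DMSO, 0.263% ± 0.0067 with AKTi, 0.349% ± 0.012 with EZH2i and 0.0944% ± 0.00083 with both agents (mean ± SD, n = 3). Per kilobase of gene length, the levels in DMSO ran from 169.9 CPM for CCNB1, 148 for CDK1 and 136 for CDC20 down to 4.83 for CENPK and 0.349 for PRC1, with a median of 23.2. The levels varied little between libraries of an arm, with a median coefficient of variation over the 49 genes of 5.26% in DMSO and 6.39% in the combination. In RNA from a whole culture, fewer cells in G2 and mitosis and less of each transcript per cell cannot be told apart.

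Libraries held 14133755 to 22276417 counts, and replicates varied beyond sampling noise (chi-square per gene 2.63 to 8.09). Of 7 prostate luminal markers (KLK2, KLK3, FOLH1, HOXB13, TMPRSS2, KRT8 and KRT18), 6 were higher and KRT18 was lower with AKTi (-0.18, not called when scaled by library size only or by the upper quartile). With EZH2i 5 were higher, and FOLH1 (-0.11) and HOXB13 (0.10) were not called, although HOXB13 was higher (0.25) and FOLH1 at 0.038 when scaled by library size only. In the combination 6 were higher and HOXB13 was lower (log2 fold change -0.53). Of all 16646 tested genes, 3429 were called higher with AKTi, 5421 with EZH2i and 6320 in the combination. The mean level of KLK2 was 103 CPM in DMSO, 179.6 with AKTi, 293 with EZH2i and 489.6 in the combination. That of KLK3 was 1372 CPM in DMSO, 2342 with AKTi, 2890.3 with EZH2i and 3941 in the combination. The arm means summed to at most 0.189 for 3 basal, 0.763 for 4 immune, 2.32 for 3 neuroendocrine, 6.20 for 3 endothelial and 17.2 for 4 stromal markers. The share of counts from mitochondrial genes moved with the arms, from 2.37% to 3.36% in DMSO, 3.93% to 4.29% with AKTi, 4.35% to 5.31% with EZH2i and 5.14% to 5.64% in the combination. Whether these shifts have a part in the values below was not tested.

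Each inhibitor alone lowered the mitotic genes. With AKTi, 48 of the 49 were lower than in DMSO and none was higher, where 21.9% of all tested genes were called lower, and the median log2 fold change was -1.30 against 0.01 over all tested genes. With EZH2i, 48 were lower and none higher, where 31.5% of tested genes were called lower, and the median was -0.94 against 0.03. In the combination all 49 were lower than in DMSO, where 35.2% of tested genes were called lower, and the median was -2.92 against 0.06. The estimates were below 0 for all 49 genes under each treatment, so none was higher at any threshold, and DESeq2 gave the same 48, 48 and 49 genes lower. PRC1 was the gene not called under either agent. For the remaining 48 genes every AKTi library and every EZH2i library lay below every DMSO library. The median gene kept 40.6% of its DMSO level with AKTi, 52.1% with EZH2i and 13.3% in the combination.

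**Figure D2:**
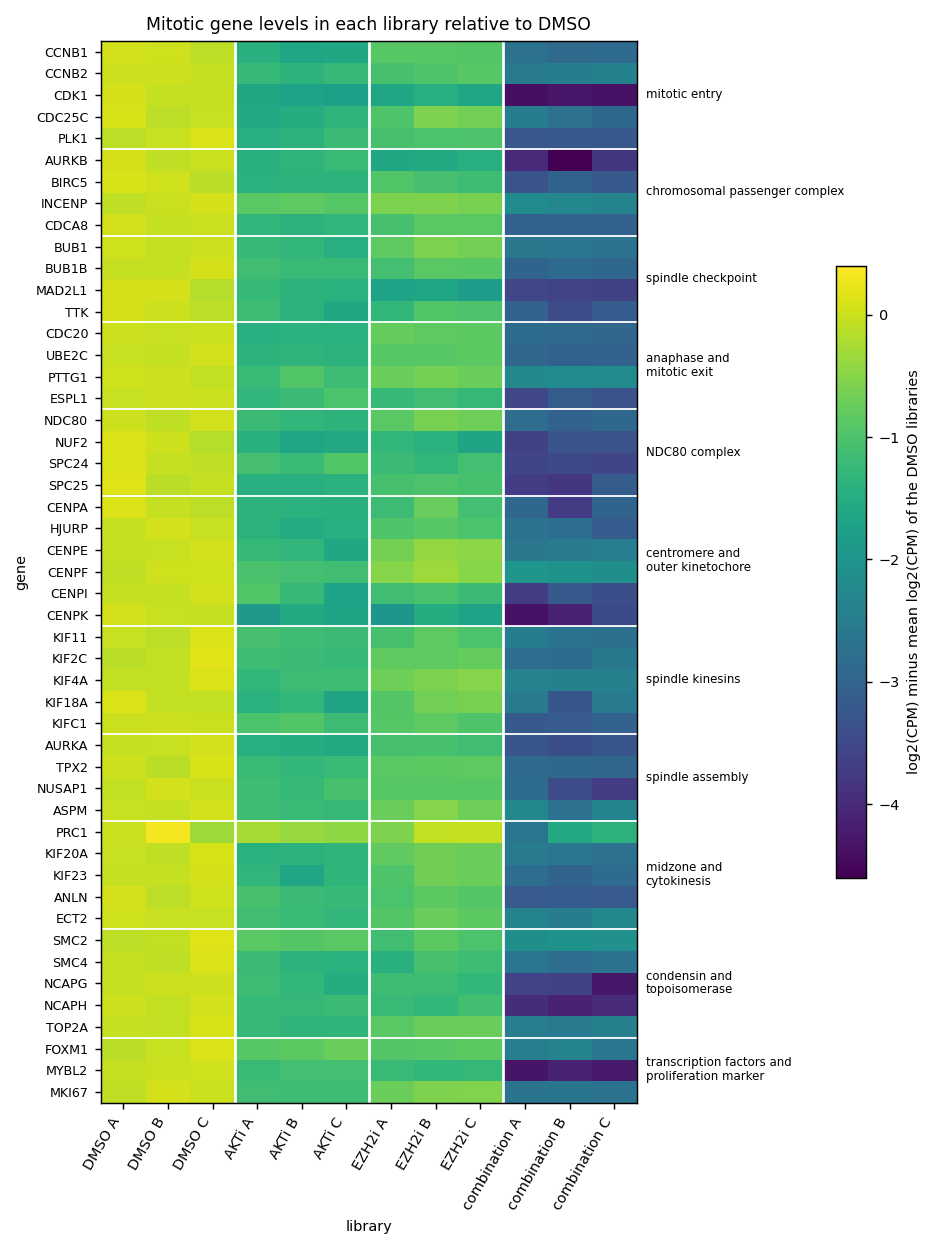
Log2 CPM of each of the 49 genes (y axis, grouped by role) in each of the 12 libraries (x axis), minus the gene's mean log2 CPM in DMSO, on a colour scale from yellow (0) to dark violet (about -4.6). The 3 combination libraries are the darkest in every row, and PRC1 is the row where the single-agent libraries overlap DMSO.

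The combination also lay below each agent given alone. All 49 genes were lower in the combination than with AKTi, where 32.1% of tested genes were called lower (median log2 fold change -1.63), and all 49 were lower than with EZH2i, where 25.7% were (median -2.05). Both calls held together for the 49, against 19.7% of tested genes. Every combination library was below every other library for all 49 genes, a pattern found in 19.7% of tested genes. The arms stood in the order DMSO, EZH2i, AKTi and combination, with no overlap between libraries of neighbouring arms, in 32 of the 49 genes and in 0.877% of tested genes. Only this order was counted, and it is the one that most of the 49 genes show, so these shares are a description. The comparisons share the DMSO and the combination libraries and are not independent of each other.

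**Figure D3:**
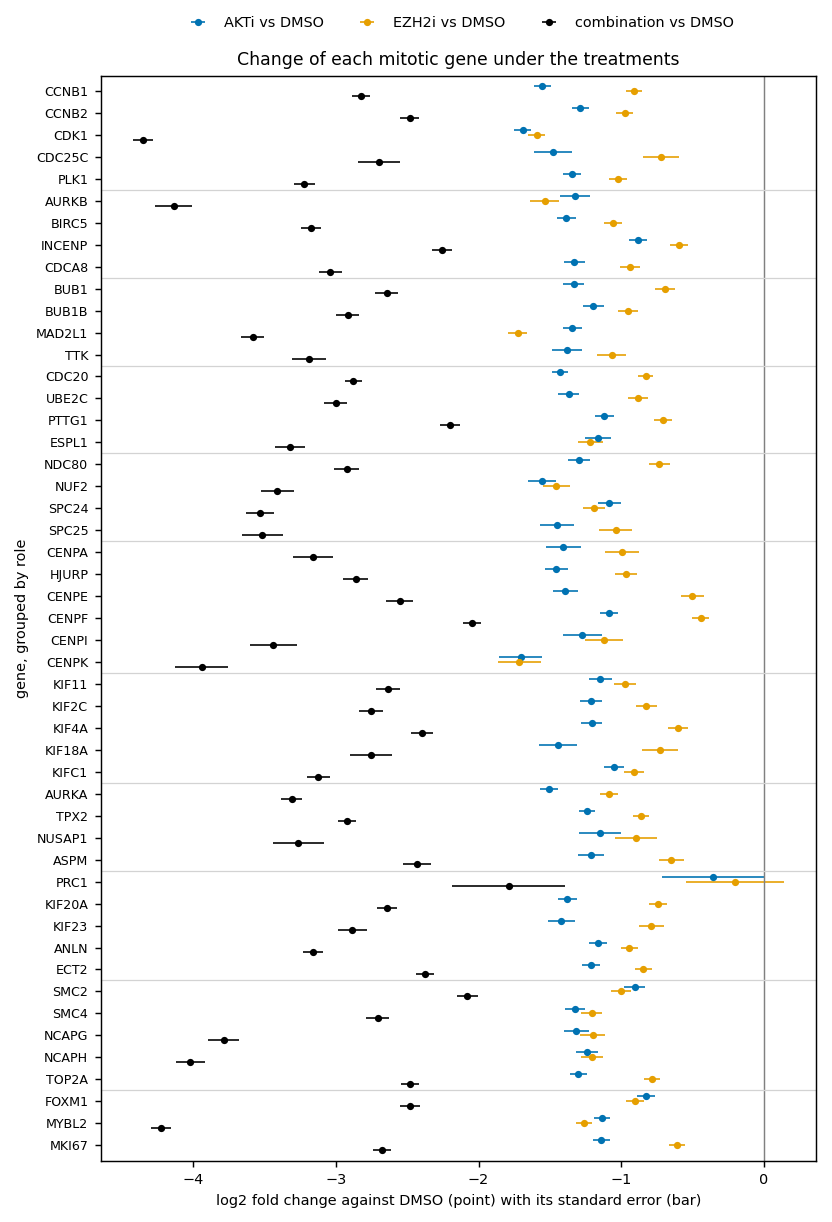
Fitted log2 fold change against DMSO (x axis; bars, standard error) of each gene (y axis, grouped by role) for AKTi in blue, EZH2i in orange and the combination in black. The combination points lie left of both single-agent points in every row, from -4.35 for CDK1 to -1.79 for PRC1.

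Of the 49 genes, the one that fell furthest in the combination was CDK1, of the mitotic entry group. The group as a whole did not fall furthest. Its log2 median there was -2.82, against -2.92 over the 49 genes and -3.46 in the NDC80 complex. CDK1, the kinase that starts mitosis, had 615, 564 and 561 CPM in DMSO, 191, 178 and 169 with AKTi, 184, 209 and 183 with EZH2i and 27.6, 29.6 and 28.3 in the combination. The AKTi and EZH2i libraries overlapped each other, and both were far above the combination. CDK1 fell by 4.35 on the log2 scale in the combination (standard error 0.070, adjusted p = 1.3e-34), to 4.91% of its DMSO level. CCNB1, the cyclin that activates it, had 452, 447 and 405 CPM in DMSO, 161, 139.8 and 143 with AKTi, 233, 233 and 227 with EZH2i and 64.8, 59.6 and 59.8 in the combination. Here the 4 arms were fully separated, with EZH2i above AKTi, and the log2 fold change was -1.55 with AKTi, -0.91 with EZH2i and -2.82 in the combination. PLK1, which acts at entry, at the kinetochore and in cytokinesis, had 195, 204 and 225 CPM in DMSO, 76.5, 78.7 and 90.2 with AKTi, 100.3, 102 and 104 with EZH2i and 21.9, 22.4 and 22.6 in the combination. Its combination libraries were tightly grouped at 10.7% of the DMSO mean. CCNB2 and CDC25C, the phosphatase that removes the inhibitory phosphates from CDK1, changed by -2.48 and -2.70 in the combination.

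The chromosomal passenger complex corrects faulty attachments through its kinase AURKB, with INCENP as scaffold and BIRC5 (survivin) and CDCA8 (borealin) as targeting subunits. AURKB had 58.4, 52.1 and 55.2 CPM in DMSO, 20.5, 21.6 and 23.98 with AKTi, 18.1, 18.6 and 20.3 with EZH2i and 3.45, 1.96 and 3.99 in the combination. With both agents it was at 5.67% of its DMSO level, a fall of 4.14 on the log2 scale (standard error 0.13, adjusted p = 1.3e-25), and here every EZH2i library was below every AKTi library. BIRC5 had 324, 311 and 279.9 CPM in DMSO, 115, 117 and 118 with AKTi, 157, 145 and 138 with EZH2i and 30.3, 37.7 and 33.5 in the combination. Its arms did not overlap, and EZH2i lay above AKTi. The log2 fold change in the combination was -3.17 for BIRC5, -3.04 for CDCA8 and -2.26 for INCENP, so the scaffold kept 20.9% of its level where the kinase kept 5.67%.

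Among the spindle checkpoint genes, MAD2L1 (MAD2), which sequesters CDC20, was the only gene of the 49 lower with EZH2i than with AKTi by the test. It had 176, 176 and 150.1 CPM in DMSO, 70.02, 64.7 and 63.1 with AKTi, 51.4, 53.3 and 47.00 with EZH2i and 14.4, 13.8 and 13.6 in the combination. The EZH2i libraries all lay below the AKTi libraries, and the log2 fold change of EZH2i against AKTi was -0.38 (standard error 0.072, adjusted p = 2.4e-05). BUB1, a checkpoint kinase at the kinetochore, had 96.5, 91.2 and 95.4 CPM in DMSO, 39.5, 38.6 and 34.2 with AKTi, 52.8, 62.7 and 59.4 with EZH2i and 15.5, 15.2 and 14.6 in the combination. It went the other way between the agents, with every EZH2i library above every AKTi library (log2 difference 0.64, adjusted p = 4.5e-09). TTK (MPS1), the kinase at the top of the checkpoint, changed by -3.19 in the combination, and BUB1B (BubR1) by -2.92.

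Genes of anaphase and mitotic exit were lowered as well. CDC20 had 279, 273 and 278 CPM in DMSO, 100.3, 104 and 104 with AKTi, 160.3, 154 and 153 with EZH2i and 38.9, 37.7 and 35.9 in the combination. No arm overlapped another, and the fall in the combination was to 13.6% of DMSO (log2 fold change -2.88, adjusted p = 1.8e-31). UBE2C, the ubiquitin-conjugating enzyme of the anaphase-promoting complex, had 77.2, 75.4 and 81.04 CPM in DMSO, 30.02, 30.8 and 29.7 with AKTi, 41.7, 41.8 and 43.2 with EZH2i and 10.1, 9.46 and 9.55 in the combination. PTTG1 (securin), the inhibitor of separase that the complex destroys, had 128, 126 and 119 CPM in DMSO, 52.9, 63.6 and 55.2 with AKTi, 74.7, 79.1 and 74.5 with EZH2i and 26.4, 27.4 and 27.2 in the combination. Both had 4 separated arms, with EZH2i above AKTi. PTTG1 kept 21.7% of its DMSO level in the combination, while ESPL1, separase itself, kept 10.03%.

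The 4 subunits of the NDC80 complex, which hold the microtubule at the outer kinetochore, fell by a median of 3.46 on the log2 scale in the combination. NDC80 had 83.5, 78.1 and 86.3 CPM in DMSO, 36.02, 33.1 and 31.98 with AKTi, 44.8, 53.7 and 50.5 with EZH2i and 11.8, 10.03 and 10.8 in the combination. All 4 arms were separated, with EZH2i above AKTi. SPC24, whose window had no CHR word, had 84.8, 75.5 and 73.4 CPM in DMSO, 36.7, 33.4 and 39.8 with AKTi, 33.9, 31.97 and 36.2 with EZH2i and 6.59, 6.92 and 6.65 in the combination. Its AKTi and EZH2i libraries overlapped, and it fell further than NDC80 in the combination, with log2 fold changes of -3.53 for SPC24 and -2.92 for NDC80. SPC25 changed by -3.52 and NUF2 by -3.41.

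At the centromere, CENPA, the histone H3 variant that marks it, had 37.3, 33.1 and 31.8 CPM in DMSO, 13.2, 12.8 and 12.6 with AKTi, 15.1, 19.99 and 15.9 with EZH2i and 4.46, 2.59 and 4.29 in the combination. The AKTi libraries lay below the EZH2i libraries and the combination below both (log2 fold change against DMSO -3.16, standard error 0.14). HJURP, the chaperone that deposits CENPA, changed by -2.86. CENPE, the motor that moves chromosomes to the spindle equator, had 61.7, 62.99 and 66.8 CPM in DMSO, 26.4, 25.7 and 20.99 with AKTi, 40.8, 47.9 and 46.4 with EZH2i and 10.3, 10.8 and 11.6 in the combination. It kept 70.5% of its DMSO level with EZH2i against 38.2% with AKTi, the largest difference between the agents in the 49 genes (log2 0.89, adjusted p = 9.6e-11). CENPF, a large protein of the outer kinetochore, had 177, 194 and 194 CPM in DMSO, 92.2, 88.3 and 85.5 with AKTi, 132, 150.1 and 134 with EZH2i and 47.7, 45.5 and 43.6 in the combination. At 24.2% of DMSO its level was the best kept in the combination after PRC1. CENPK, of the constitutive centromere network, was low at the outset and had 21.8, 20.4 and 20.2 CPM in DMSO, 5.50, 7.15 and 6.46 with AKTi, 5.29, 7.31 and 6.34 with EZH2i and 1.01, 1.21 and 1.87 in the combination. The single-agent libraries overlapped, and the combination was at 6.56% of DMSO on a mean of 24.0 counts per library.

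Spindle motors and assembly factors fell in parallel. KIF11 (Eg5), which pushes the spindle poles apart, had 85.2, 79.8 and 93.2 CPM in DMSO, 40.6, 38.6 and 37.6 with AKTi, 41.3, 47.8 and 42.6 with EZH2i and 15.3, 13.5 and 12.7 in the combination. Every EZH2i library was above every AKTi library, although the difference between the agents was not called (log2 difference 0.17, adjusted p = 0.071). It was called under scaling by library size only (0.26, adjusted p = 0.0071) or by the upper quartile (0.23, adjusted p = 0.013), and with at least 10 counts required in every library (0.21, adjusted p = 0.028). The log2 fold change in the combination was -2.64 for KIF11, -2.75 for KIF2C (MCAK), a microtubule depolymerase, -2.40 for KIF4A, -2.75 for KIF18A and -3.12 for KIFC1, the motor that clusters poles. AURKA, the Aurora kinase of the spindle poles, had 131, 132 and 140.5 CPM in DMSO, 48.8, 47.6 and 45.7 with AKTi, 64.9, 64.5 and 61.1 with EZH2i and 13.9, 12.8 and 14.02 in the combination. TPX2, which activates AURKA on the spindle, had 284, 261 and 301 CPM in DMSO, 122, 115 and 122 with AKTi, 152, 155 and 158 with EZH2i and 37.9, 37.2 and 36.5 in the combination. Both had 4 separated arms, and they kept 10.1% and 13.2% of their DMSO levels in the combination. ASPM, a protein of the spindle poles, changed by -2.43 and NUSAP1 by -3.26.

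At the central spindle, KIF20A (MKLP2), which brings the passenger complex to the midzone, had 130.1, 126 and 143 CPM in DMSO, 50.3, 50.9 and 52.2 with AKTi, 75.5, 82.99 and 80.1 with EZH2i and 22.6, 21.3 and 19.9 in the combination. Its arms did not overlap. The furrow scaffold ANLN (anillin) changed by -3.16 in the combination, the centralspindlin motor KIF23 by -2.89 and ECT2, which activates RhoA at the furrow, by -2.38. PRC1, which bundles the antiparallel microtubules of the midzone, was measured poorly, with 1.88, 2.36 and 1.53 CPM in DMSO, 1.59, 1.47 and 1.39 with AKTi, 1.27, 1.81 and 1.84 with EZH2i and 0.304, 0.634 and 0.725 in the combination. The single-agent libraries overlapped those of DMSO, and the log2 fold change was -0.36 with AKTi (adjusted p = 0.45), -0.20 with EZH2i (adjusted p = 0.62) and -1.79 in the combination (adjusted p = 1.2e-04). Its mean count was 30.7 in DMSO and 9.67 in the combination. By the gene coordinates given with the counts, 99.5% of its span is covered by another protein-coding gene on the same strand, AC068831.7, so its reads can have been split or lost in counting. AC068831.7 had log2 fold changes of -1.13 with AKTi, -1.15 with EZH2i and -2.37 in the combination. NUSAP1 is covered in the same way over 99.4% of its span by a gene that was listed at 0 in every library, and CENPA over 46.1% by SLC35F6, which changed by 0.74 in the combination. Of the 49 genes, 28 overlap some other gene, and how the counting treated strand is not given in the sources used here.

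Condensin and topoisomerase genes spread widely. NCAPH, the kleisin subunit of condensin I, had 71.4, 67.5 and 73.5 CPM in DMSO, 29.7, 29.3 and 31.00 with AKTi, 30.2, 28.99 and 32.8 with EZH2i and 4.61, 4.04 and 4.41 in the combination. The AKTi and EZH2i libraries overlapped, and the combination was at 6.15% of DMSO (log2 fold change -4.02, standard error 0.099, adjusted p = 3.9e-29). NCAPG, another subunit of condensin I, changed by -3.79. SMC2, the ATPase core shared by both condensins, had 111, 115 and 134 CPM in DMSO, 65.03, 62.2 and 64.9 with AKTi, 54.7, 65.8 and 58.99 with EZH2i and 27.6, 29.3 and 28.3 in the combination. The AKTi and EZH2i libraries overlapped. Its level in the combination was 23.7% of DMSO, and the core partner SMC4 kept 15.3%, with 245, 239 and 275 CPM in DMSO, 110.2, 97.7 and 95.6 with AKTi, 93.7, 121 and 113 with EZH2i and 40.7, 36.5 and 39.1 in the combination. TOP2A, which untangles sister chromatids, had 290.3, 285 and 318 CPM in DMSO, 125, 118 and 119 with AKTi, 162, 178 and 178 with EZH2i and 53.9, 50.6 and 55.7 in the combination. Its arms were separated, with EZH2i above AKTi, and the log2 fold change in the combination was -2.48.

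The transcription factors that activate this programme were themselves members. MYBL2 had 259, 266 and 274 CPM in DMSO, 114, 124 and 125 with AKTi, 114, 109 and 109.7 with EZH2i and 13.4, 15.3 and 14.02 in the combination. The combination libraries stood far below the others. The single agents left it at 45.5% with AKTi and 41.7% with EZH2i, and the combination at 5.35%, a fall of 4.23 on the log2 scale (standard error 0.069, adjusted p = 2.4e-34). FOXM1 had 194, 206 and 231 CPM in DMSO, 113, 116 and 127 with AKTi, 109.95, 112 and 115 with EZH2i and 38.2, 40.9 and 33.8 in the combination. It fell by less, to 17.9% of DMSO (-2.48), and its AKTi and EZH2i libraries overlapped. MKI67, whose product Ki-67 coats mitotic chromosomes, had 203, 226 and 215 CPM in DMSO, 98.2, 96.7 and 97.04 with AKTi, 131, 144 and 147 with EZH2i and 33.7, 34.02 and 33.05 in the combination. All 4 arms of MKI67 were separated, with EZH2i above AKTi.

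A list of 15 genes of the MuvB, DREAM and NF-Y complexes held MuvB, with which FOXM1 and MYBL2 work, and also pocket proteins that repress. Of the 15, 10 were lower in the combination, 3 were higher and 2 were not called. Over all 16646 tested genes, 5866 (35.2%) were called lower and 6320 higher. The median log2 fold change of the 15 was -0.62, against -2.92 in the 49 genes. The MuvB subunits LIN9 and LIN52 changed by -2.08 and -1.98, LIN54, which contacts the CHR, by -0.91, and RBBP4 by -0.62, while LIN37 was not called (-0.51, adjusted p = 0.32). Of the pocket proteins that repress with DREAM, RBL1 (p107) changed by -2.10 and RBL2 (p130) by 0.28 (adjusted p = 1.1e-04). Of the NF-Y subunits, the log2 fold change was 0.22 for NFYA, -0.49 for NFYB and -0.06 for NFYC (adjusted p = 0.47 for the last). These genes were singled out of the list after their values were seen. In the subunits and the coactivator of the anaphase-promoting complex, partners of the members CDC20 and UBE2C, 12 of 15 were lower in the combination, against 35.2% of tested genes. Their median was -0.71, with estimates below 0 in all 15. When scaled by library size only, 11 were lower and 1 was higher, with a median of -0.51, where 28.5% of tested genes were called lower. The subunit ANAPC2 (-0.03, not called) was then higher, at 0.17 (adjusted p = 0.023), and the coactivator FZR1 (-0.19) was at 0.0068. ANAPC16 (0.13) and CDC26 (0.053) were then also above 0 and not called.

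Each agent's effect on the log2 scale was compared with its effect in the presence of the other. This interaction term takes the AKTi and EZH2i changes against DMSO from that of the combination, and it is negative where the combination fell below the product of the proportions left by the single agents. It was negative and called in 42 of the 49 genes, where 17.5% of tested genes were, and the estimate was below 0 in all 49. DESeq2 also called 42. The median was -0.73, against -0.05 over all tested genes. CCNB2, CDC25C, NUF2, CENPK, PRC1, SMC2 and SMC4 were not called. The departure was largest for MYBL2, at -1.83 (standard error 0.090, adjusted p = 3.3e-18). The single agents left 45.5% and 41.7% of MYBL2, whose product is 18.97%, and the combination left 5.35%. NCAPH followed at -1.57 (adjusted p = 1.2e-11), with 6.15% left against a product of 18.4%.

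At the other end, the combination was close to the product for the SMC core of condensin, with -0.17 for SMC2 (adjusted p = 0.25) and -0.17 for SMC4 (adjusted p = 0.24). The standard error of both was 0.11. The SMC4 value ran from -0.30 to -0.099 as each library was left out, and it was called at -0.30 without EZH2i library A (adjusted p = 0.013). SMC4 was left at 15.3% against a product of 17.3%. CDK1 departed by -1.06, AURKB by -1.27, PLK1 by -0.85 and CCNB1 by -0.36. KIF18A (-0.58, adjusted p = 0.031) lost its call without DMSO library B or C, AKTi library B, EZH2i library B or C, or combination library B, with adjusted p-values of 0.052 to 0.15. PTTG1 (-0.38, adjusted p = 0.0030) lost it without AKTi library B (adjusted p = 0.056).

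The sign of this departure belongs to the log2 scale. On the CPM scale, the same 4 means gave a departure above 0 in 48 of the 49 genes, all but PRC1, because the CPM lost to the single agents add up to more than the combination lost. For CDK1 it was 237 CPM, where the losses to the single agents together exceeded the DMSO level of 580.1 CPM. For those 48 genes the combination mean was below the product of the single-agent proportions and above the level left by summing the CPM losses.

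**Figure D4:**
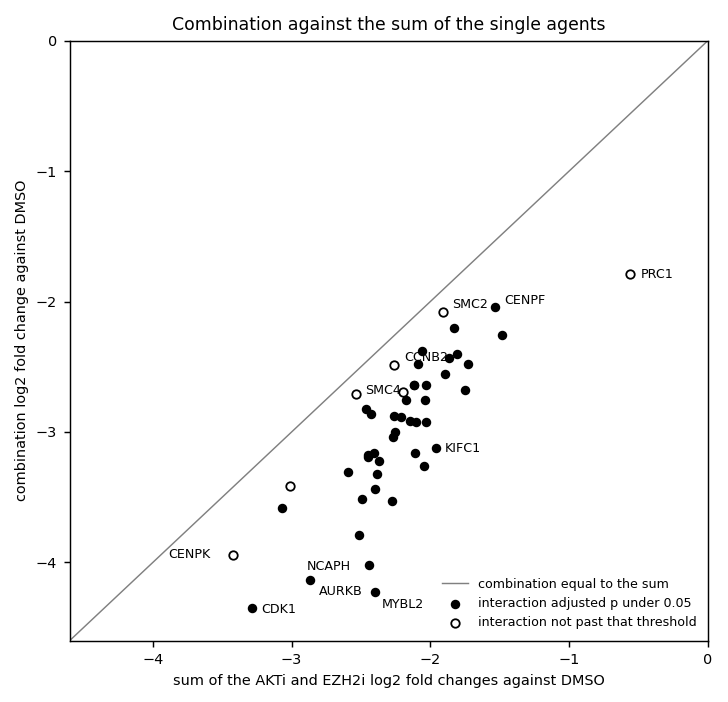
Log2 fold change of the combination against DMSO (y axis) and the sum of the AKTi and EZH2i log2 fold changes (x axis) for the 49 genes, with the line where they are equal. All points lie below the line; the 42 filled points passed the interaction test and the 7 open points did not.

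A direct comparison of the agents, EZH2i against AKTi, was added after the data had been seen. Tazemetostat was given for 6 days before the 24 hours of treatment and ipatasertib only during them. In this comparison the agent and the length of exposure cannot be told apart. Of the 49 genes, 31 were higher with EZH2i, where 25.4% of tested genes were called higher, and MAD2L1 alone was lower, where 25.1% were called lower. The median log2 difference was 0.32 against 0.02 over all tested genes, and the estimate was higher with EZH2i in 41 of the 49. CENPE, CDC25C (0.76) and KIF18A (0.72) had the largest differences. CDK1 (0.10, adjusted p = 0.18), MYBL2 (-0.13, adjusted p = 0.065), FOXM1 (-0.08, adjusted p = 0.35) and the condensin subunits were not called between the agents. CDK1 was called higher with EZH2i under scaling by library size only (0.18) or by the upper quartile (0.16). So was SMC4, at 0.20 and 0.18 where the main difference was 0.12, and it was also called without EZH2i library A (0.19, adjusted p = 0.017). The FOXM1 estimate changed sign under scaling by library size only (0.0084). Leaving out AKTi library A or EZH2i library A brought MYBL2 into the genes lower with EZH2i (-0.19 and -0.17), which made 2. The higher calls of BUB1B, TTK, ANLN and CENPA were each lost on leaving out 1 or more of AKTi libraries B and C and EZH2i libraries B and C, with adjusted p-values of 0.053 to 0.21.

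The G1/S genes went the other way between the agents, whose lengths of exposure also differed. Of the 30, 26 were lower with EZH2i than with AKTi and 1 was higher, where 25.1% and 25.4% of tested genes were. The median log2 difference of the 30 was -0.63. Their median fall was -0.76 with AKTi and -1.34 with EZH2i, against -1.30 and -0.94 for the mitotic genes, and in the combination the medians were -2.84 and -2.92. The other 80 mitotic genes had a median of -1.06 with AKTi, -0.90 with EZH2i and -2.56 in the combination. Between the agents 32 of them were higher and 15 lower with EZH2i, where 25.4% and 25.1% of tested genes were. When scaled by library size only, 40 were higher and 9 lower, against 5104 and 3293 of all 16646 tested genes. Of these 80, 79 were lower in the combination, against 35.2% of tested genes. CENPC, a protein of the inner kinetochore present through the cell cycle, was not called (-0.10). In the interaction, 45 of the 80 were called negative, 31 were not called, and BUB3, MIS12, NSL1 and PMF1 were called positive. Over all tested genes, 2909 (17.5%) were called negative and 1779 positive. The estimate was below 0 in 66 of the 80.

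**Figure D5:**
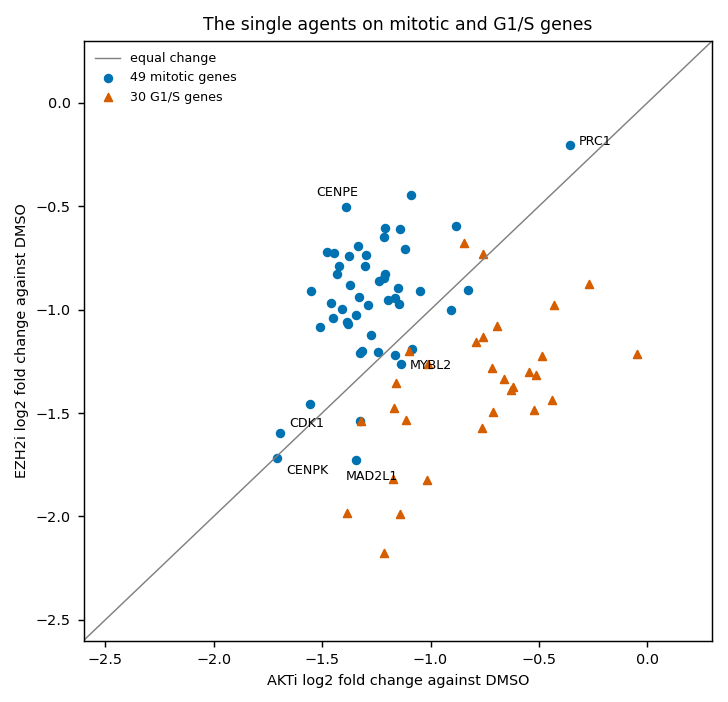
Log2 fold change against DMSO with AKTi (x axis) and EZH2i (y axis) for the 49 mitotic genes (circles) and the 30 G1/S genes (triangles), with the line of equal change. The agents also differed in length of exposure. The mitotic genes have medians of -1.30 and -0.94 and lie mostly above the line, and the G1/S genes have medians of -0.76 and -1.34 and lie mostly below it.

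The 5 genes whose window held no CHR word, AURKB, SPC24, CENPI, CENPK and MYBL2, were set beside the 38 that held it. The AURKB windows reached only to chr17:8210499, while the gene as listed with the counts, on the minus strand, begins at 8210600. The bases before that point were not searched. Whether the windows of the other genes, CENPI among them, hold the start used in these cells was not tested, so a missing word describes the window only. The median log2 fold change of the 5 was -1.27 with AKTi against -1.30, -1.26 with EZH2i against -0.90, and -3.94 in the combination against -2.79. The interaction had a median of -1.26 in the 5 and -0.64 in the 38. Between the agents the medians were -0.11 and 0.39. With 5 genes, and overlapping ranges (-4.23 to -3.44 in the combination without a CHR word, -4.35 to -1.79 with it), this is a description.

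Relatives of these genes that work mainly outside mitosis moved in both directions. Of 19 tested kinesins, mainly those that carry cargo in interphase, 12 were higher in the combination and 5 lower, with a median log2 fold change of 0.56. Over all 16646 tested genes, 6320 were higher and 5866 lower. With EZH2i alone 12 of the 19 were higher and 3 lower (median 0.45), where 5421 of all tested genes were higher and 5249 lower. The combination against EZH2i had a median of 0.01 in the 19. KIF5B, among the 5 lower in the combination, was at 0.02 when libraries were scaled by size only. Cohesin, the SMC complex that holds sister chromatids together, had a median of -0.35 over 9 genes, with 6 lower and 2 higher. Under that scaling the median was -0.15, with 5 lower and 3 higher, as WAPL went from -0.18 to 0.02 and PDS5B from 0.05 (not called) to 0.24 (adjusted p = 0.00044). TOP2B, the paralog that is also made in non-dividing cells, was at -0.09 (adjusted p = 0.22) where TOP2A was at -2.48. Among the polo-like kinases, PLK2 rose by 3.91 and PLK3 changed by -1.70, while PLK4, the kinase of centriole duplication, changed by -3.14, close to PLK1 at -3.22. CCNB3, a cyclin of meiosis, rose by 0.89 (adjusted p = 0.025) from 1.11 to 2.08 CPM, and AURKC, the Aurora kinase of germ cells, was not called (0.21, adjusted p = 0.79).

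The fold changes are relative to the other genes of the library. Scaling by library size only moved the median of all tested genes in the combination from 0.06 to 0.26 and with it the split of calls, from 48.1% lower to 38.5%. For EZH2i against DMSO the lower share of the calls went from 49.2% to 38.7%, and for the combination against AKTi from 49.995% to 39.8%. The 49 genes were all still called lower in the combination, with a median of -2.72, where 28.5% of tested genes were called lower under that scaling.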

How the data were processed

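The 12 libraries of polyA RNA from C4.2B cells formed 4 arms of 3. The authors aligned reads to hg38 with STAR and counted them with HTSeq, and the deposited count table holds whole numbers of reads for 58735 genes. Versions, annotation and strand setting are not given in the sources used here. The authors' DESeq2-normalized table was not used, and gene lengths came with the counts.

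The counts were analysed with R 4.3.3. Genes passing filterByExpr of edgeR 4.0.16 (minimum count 10, minimum total 15; 16646 genes) were scaled by TMM and fitted by the quasi-likelihood test with 1 mean per arm over 12 libraries. P-values were adjusted by Benjamini-Hochberg (threshold 0.05), and the standard error was the log2 fold change divided by the square root of F. The steps were tested on simulated data. At 14133755 to 22276417 counts per library, PRC1 had the lowest counts of the 49 genes.

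The 49 genes and all lists were chosen with earlier results of these data known. Genes named were 24 fixed by role, the extremes of each comparison, called exceptions and all interphase paralogs, and others were chosen after their values were seen. Alternatives were DESeq2 1.42.0, library size only, upper quartile, filters of at least 1 count in total or 10 in every library, only the arms compared, the replicate letter as a block, and omission of each library. Promoter windows came from RefSeq. Some luminal markers are not reported here.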

Additional observations from a re-analysis of the deposited data

Results flagged for a closer look

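For 24 of the 28 genes named by rule, the effect of 1 agent differed with the presence of the other, as tested by the interaction term of edgeR's quasi-likelihood test. Over all tested genes 17.5% were called negative in this term. The 28 include genes chosen as the extremes of this same term, MYBL2, NCAPH, SMC4 and SMC2. All 24 values are negative on the log2 scale, and the combination was below both single agents in 3 of 3 libraries for each gene. Among the transcription factors and the proliferation marker, the term was -1.83 for MYBL2, -0.93 for MKI67 and -0.75 for FOXM1. In mitotic entry it was -1.06 for CDK1, -0.85 for PLK1 and -0.36 for CCNB1. The passenger complex gave -1.27 for AURKB and -0.73 for BIRC5, and the checkpoint -0.74 for TTK, -0.61 for BUB1 and -0.51 for MAD2L1. In anaphase and exit the values were -0.75 for UBE2C, -0.62 for CDC20 and -0.38 for PTTG1. Kinetochore and centromere genes gave -0.89 for NDC80, -0.76 for CENPA, -0.66 for CENPE and -0.51 for CENPF. Spindle genes gave -0.82 for TPX2, -0.71 for AURKA, -0.52 for KIF11 and -0.52 for KIF20A. Condensin and topoisomerase gave -1.57 for NCAPH and -0.39 for TOP2A. On the CPM scale the departure of each of these 24 genes has the opposite sign.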

How the results depend on the processing

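The numbers of the 49 genes called stayed within 1.5 times their main value in every comparison, except that 1 to 2 were lower with EZH2i than AKTi as each library was left out. Their medians moved by more than the spread between libraries under both other scalings, the filter of 10 counts in every library, and the omission of some single libraries. For AKTi, EZH2i and the combination against DMSO, the combination against AKTi and against EZH2i, and EZH2i against AKTi, the medians were -1.24, -0.79, -2.72, -1.49, -1.999 and 0.41 with library size only, and -1.24, -0.82, -2.73, -1.51, -1.99 and 0.39 with upper-quartile scaling. With at least 10 counts in every library, which left 48 of the 49, the median was -2.85 for the combination against DMSO, -1.58 against AKTi and 0.38 for EZH2i against AKTi. As each library was left out, the median ran from -0.99 to -0.91 for EZH2i, -2.98 to -2.88 for the combination, -1.69 to -1.58 for the combination against AKTi, -2.11 to -2.02 against EZH2i, and -0.79 to -0.68 for the interaction.

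Signs turned for some genes not called between the agents. For EZH2i against AKTi, FOXM1 was 0.0084 with library size only. CENPK was 0.077 with library size only, 0.052 with upper quartile and 0.023 with at least 10 counts in every library, and ran from -0.13 to 0.071 with each library left out. NCAPH ran from -0.046 to 0.075. In the interaction, SMC4, CCNB2 and CDC25C were called without EZH2i library A, CDC25C also without AKTi library A or combination library A, NUF2 without DMSO library A, EZH2i library C or combination library B and when the filter was at least 1 count in total, and CENPK without combination library C. The cause was not tested. The replicate letters did not pair the libraries (correlation of same-letter deviations -0.058 to 0.069). With the replicate block the interaction was called in 43 of the 49 genes, NUF2 being added, and no other call changed.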
